A study of Mus musculus with 8 samples.

Results

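The nuclei described here were those of sphincter 2, the smaller of 2 clusters of iris sphincter muscle, taken from the dilated and the untreated libraries of a single nucleus (sn)RNAseq study of the mouse iris. Members were the nuclei that the authors had assigned to sphincter 2, and their unique molecular identifiers (UMIs, each standing for 1 captured transcript) were summed per library. There were 509 such nuclei in 5 libraries, 352 from 3 untreated and 157 from 2 dilated libraries, of 712 sphincter 2 nuclei in all 8 libraries and 34357 nuclei of all cell types. All mice were wild-type albino females of 6 to 8 weeks, and each library pooled 5 or 6 irises. For dilation, eyes received 5% phenylephrine with 1% cyclopentolate every hour for 6.5 hours and the mice stayed in the dark. Untreated mice received no drops, and 3 further libraries came from irises constricted with 5% pilocarpine in the light. Dilation by drugs and darkness therefore went together and cannot be told apart, and drops without a drug were not part of the design.

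The pupil is set by 2 smooth muscles, the ring-shaped sphincter, which closes it, and the radial dilator, which opens it. Acetylcholine from parasympathetic nerves contracts the sphincter through muscarinic receptors that couple to Gq, phospholipase C and calcium release, and noradrenaline contracts the dilator through alpha-1 adrenergic receptors. Phenylephrine is an alpha-1 agonist and cyclopentolate a muscarinic antagonist, so that sphincter cells under these drops lose muscarinic drive and lengthen as the pupil widens.

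Sphincter 2 nuclei numbered 26, 136 and 190 in untreated libraries 1, 2 and 3 and 71 and 86 in dilated libraries 1 and 2. Their summed UMIs were 109148, 480546 and 674523 in the untreated and 269965 and 293546 in the dilated libraries, so that untreated library 1 was the shallowest. Levels are given as UMIs per 1000000 UMIs of the sphincter 2 nuclei of a library (CPM). They are not divided by gene length. Median UMIs per nucleus ranged from 3334 to 4523.5 in the untreated and from 3325.5 to 3512 in the dilated libraries. The mean mitochondrial share of UMIs was 0.0236 to 0.0474% in the untreated and 0.0607 to 0.0651% in the dilated libraries. The mitochondrial transcript *mt-Co3* was itself among the genes called as rises below, and was called under 5 of 17 alternatives. The part of the mitochondrial share in the results was not tested. The smooth muscle genes *Myh11* (untreated mean 2801 CPM) and *Myocd* (638 CPM) and the sphincter gene *Syt1* (2112 CPM) were present. *Hhip*, a hedgehog-binding protein, averaged 976 CPM in untreated sphincter 2 and at most 278 CPM in any other cell type. *Wif1*, a secreted Wnt inhibitor, averaged 475 CPM against 55.4 CPM in the dilator. *Nos1*, a dilator marker, lay at 34.4 CPM against 246 CPM in the dilator, and *Ttn*, a sphincter 1 marker, at 8.39 CPM against 1683 CPM in sphincter 1. Other markers of these muscles were not absent. In untreated sphincter 2 the study's 20 leading dilator markers summed to a mean of 24302 CPM and its 20 sphincter 1 markers to 11222 CPM. Its 20 sphincter 2 markers summed to 31396 CPM. *Sox10*, which marks stroma 1, reached at most 6.81 CPM in any of the 5 libraries and *Ptprc*, which marks leukocytes, at most 3.70 CPM.

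Sphincter 2 took 1.65 ± 0.955% of all nuclei in the dilated (SD, n = 2) and 2.27 ± 0.597% in the untreated libraries (SD, n = 3), with dilated library 1 lowest (0.970%) and untreated library 3 highest (2.93%). The difference was not beyond the spread between libraries (exact permutation test, two-sided, p = 0.6, where the smallest p this design allows is 0.2). How much of the ciliary body was dissected with the iris varied, and of muscle nuclei alone sphincter 2 took 4.12 ± 2.16% in the dilated and 6.37 ± 1.42% in the untreated libraries (exact permutation test, p = 0.4). A nucleus whose transcripts changed enough to cluster elsewhere would be missing from these sums. That was not tested.

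Of 6691 genes with enough UMIs to be tested, 98 rose (1.46%) and 94 fell (1.4%) in dilated sphincter 2, at a log2 fold change beyond 0.6 and an adjusted p under 0.05 (edgeR's quasi-likelihood test with Benjamini-Hochberg adjustment). Rises ran from 1.68-fold to 26.4-fold with a median of 2.40-fold, and falls from 1.62-fold to 10.4-fold with a median of 2.54-fold. In 92 of the 98 genes that rose and in all 94 that fell, the dilated and untreated libraries did not overlap. These genes were called by the difference between the same libraries, which favours such separation. Its share over all genes tested was not counted. Of the genes called, 59 overlap another gene in the annotation, and whether counting used strand was not given in the sources used here, so reads of such pairs may not be told apart. Genes called with overlapping library values included *Btg2*, *Gk*, *Mest*, *Ednra* and *Zbtb16*. The libraries form 2 runs of neighbouring numbers, dilated 1 with untreated 1 and dilated 2 with untreated 2 and 3. The sign was the same in both runs for 95 of 98 rises and 94 of 94 falls. The same libraries gave the calls, which favours a shared sign, so this is no separate check. Scaling each library by its total UMIs alone, in place of the trimmed mean of M-values, moved the median log2 fold change of all genes by -0.08 and gave 64 rises and 110 falls. The counts also hung on single libraries: 39 rises and 42 falls were called without untreated library 2, 29 and 32 without untreated library 3, 108 and 62 without dilated library 1, and 32 and 16 without dilated library 2. A set of 18 rises and 8 falls was called under every alternative that tested the gene. The rises were *Pde10a*, *Tmem158*, *Itga5*, *Cadps*, *Csrp2*, *Pdlim5*, *Cacna2d3*, *Kcnma1*, *Kcnd3*, *Gpnmb*, *Acss1*, *Ppp2r2b*, *Aqp1*, *Rcn1*, *Exoc6b*, *Mgll*, *Etv6* and *Zdhhc14*, and the falls *Dkk2*, *Sybu*, *Robo2*, *Alcam*, *AC129186.1*, *Nav3*, *Nr6a1* and *Adarb2*.

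**Figure D1:**
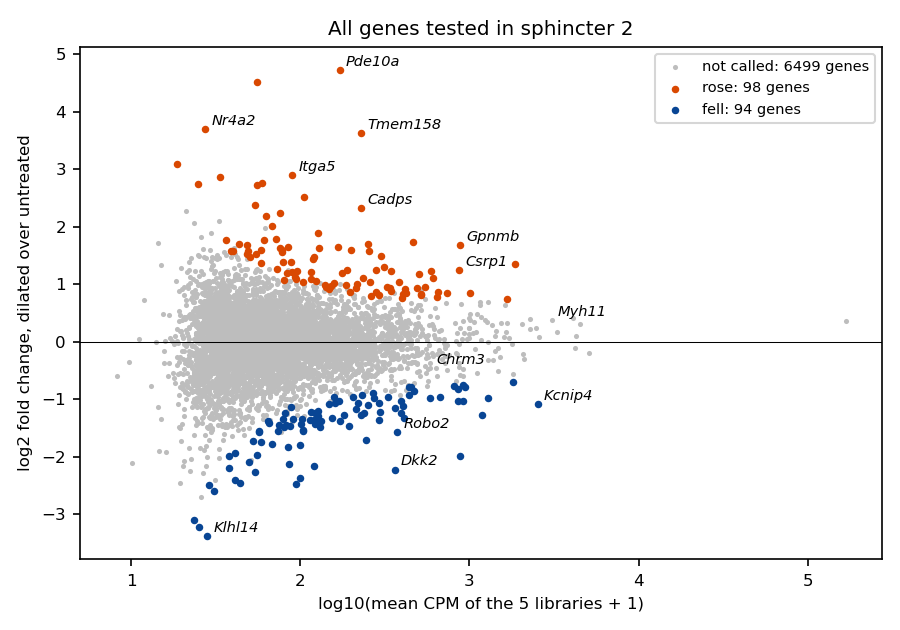
Log2 fold change of dilated over untreated sphincter 2 (vertical axis) against log10 of the mean CPM of the 5 libraries plus 1 (horizontal axis) for each of the 6691 genes tested, with the 98 genes that rose and the 94 that fell coloured. *Pde10a* at 4.72 is the highest point among the genes called and *Klhl14* at -3.38 the lowest.

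The largest rise was in *Pde10a*, a phosphodiesterase that breaks down both cAMP and cGMP (mm10, chromosome 17, 8525372 to 8986648, plus strand). Its level was 45.8, 2.08 and 19.3 CPM in untreated libraries 1 to 3 and 393 and 392 CPM in the dilated libraries. Both dilated libraries lay far above all untreated ones and nearly level with each other, with a log2 fold change of 4.72 ± 0.38 (SE) and an adjusted p of 6.15e-10 (edgeR, as throughout). A *Pde10a* UMI was found in 53.5% of nuclei in dilated library 1 (exact binomial 95% interval 41.3 to 65.5%) and 48.8% in dilated library 2 (37.9 to 59.9%), against 0.735 to 19.2% in the untreated libraries. Over all nuclei of a condition the share was 4.83% in untreated and 50.96% in dilated sphincter 2 at median depths of 3460.5 and 3395 UMIs, and 0.570% and 25.5% once each nucleus was thinned to 1000 UMIs. These intervals cover counting error only. The mean level of *Pde10a* was higher in dilated than in untreated libraries in every cell type. In dilated libraries it averaged 162 CPM in sphincter 1, 272 CPM in stroma 2, where 25.9% of nuclei at a median of 2521.5 UMIs had a UMI, 339 CPM in iris pigment epithelium, 392 CPM in sphincter 2, 1322 CPM in the dilator and 2237 CPM in the ciliary body. The part of free RNA in the sphincter 2 value was not tested. *Pde10a* overlaps the gene *Gm17087*, and whether strand was used in counting is not given in the sources used here.

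*Tmem158*, a membrane protein first known as a gene induced by Ras signalling (chromosome 9, 123259053 to 123260764, minus strand), stood at 9.16, 37.5 and 57.8 CPM in the untreated and 396 and 644 CPM in the dilated libraries. The groups were far apart (log2 fold change 3.63 ± 0.33, adjusted p = 5.83e-09, edgeR). Unlike *Pde10a*, it was higher in dilated sphincter 2, at a mean of 520 CPM, than in any other dilated cell type, with 200 CPM in the dilator and at most 43.6 CPM in the rest. A *Tmem158* UMI was found in 13.1% of untreated and 64.3% of dilated nuclei (5.70% and 34.4% after thinning), against 7.16% of dilated stroma 2 nuclei. *Rasl11b*, a small GTPase of the Ras family (chromosome 5, 74195286 to 74199481, plus strand), lay at 9.16, 6.24 and 4.45 CPM in the untreated and 48.2 and 204 CPM in the dilated libraries. All dilated values were higher, but the dilated libraries differed several-fold from each other (log2 fold change 4.52 ± 0.59, adjusted p = 1.1e-05, edgeR). Without dilated library 2 the log2 fold change of *Rasl11b* was 3.01 and did not pass.

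The other large rises covered several roles. *Osbpl3*, an oxysterol-binding protein, stood at 9.16, 4.16 and 2.97 CPM untreated and 44.5 and 27.3 CPM dilated (3.09 ± 0.82, adjusted p = 0.033). *Aqp1*, a water channel, stood at 0, 25.0 and 16.3 CPM and 130 and 102 CPM (2.73 ± 0.40, adjusted p = 5.84e-05). *Nfil3*, a clock-controlled transcription repressor, stood at 9.16, 8.32 and 5.93 CPM and 44.5 and 51.1 CPM (2.74 ± 0.69, adjusted p = 0.0223). In each of these the lowest dilated library lay above the highest untreated one, which the choice of these genes required. *Aqp1* was called under all 15 alternatives that tested it, *Nfil3* under 8 of 14 and *Osbpl3* under 6 of 9. The calls of *Nfil3* and *Osbpl3* were lost without either dilated library. An untreated value under 27.5, 6.24 and 4.45 CPM in libraries 1 to 3 rests on fewer than 3 UMIs. *Gpnmb*, a glycoprotein of pigment cells and lysosomes, stood at 266, 631 and 514 CPM untreated and 1445 and 1570 CPM dilated (1.68 ± 0.23, adjusted p = 1.74e-05). *Mgll*, the lipase that breaks down monoacylglycerols including an endocannabinoid, stood at 1035, 1276 and 1214 CPM and 3323 and 2426 CPM (1.35 ± 0.20, adjusted p = 8.49e-05). *Acss1*, a mitochondrial acetyl-CoA synthetase, stood at 110, 135 and 150 CPM and 437 and 419 CPM (1.71 ± 0.22, adjusted p = 7.73e-06). The groups were separate in all 3 genes, and the dilated libraries were close to each other. *Gpnmb* was also higher after dilation in other cells. It averaged 1946 CPM untreated and 7258 CPM dilated in the dilator, and 1083 and 1509 CPM in iris pigment epithelium. The part of free RNA in its sphincter 2 value was not tested.

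**Figure D2:**
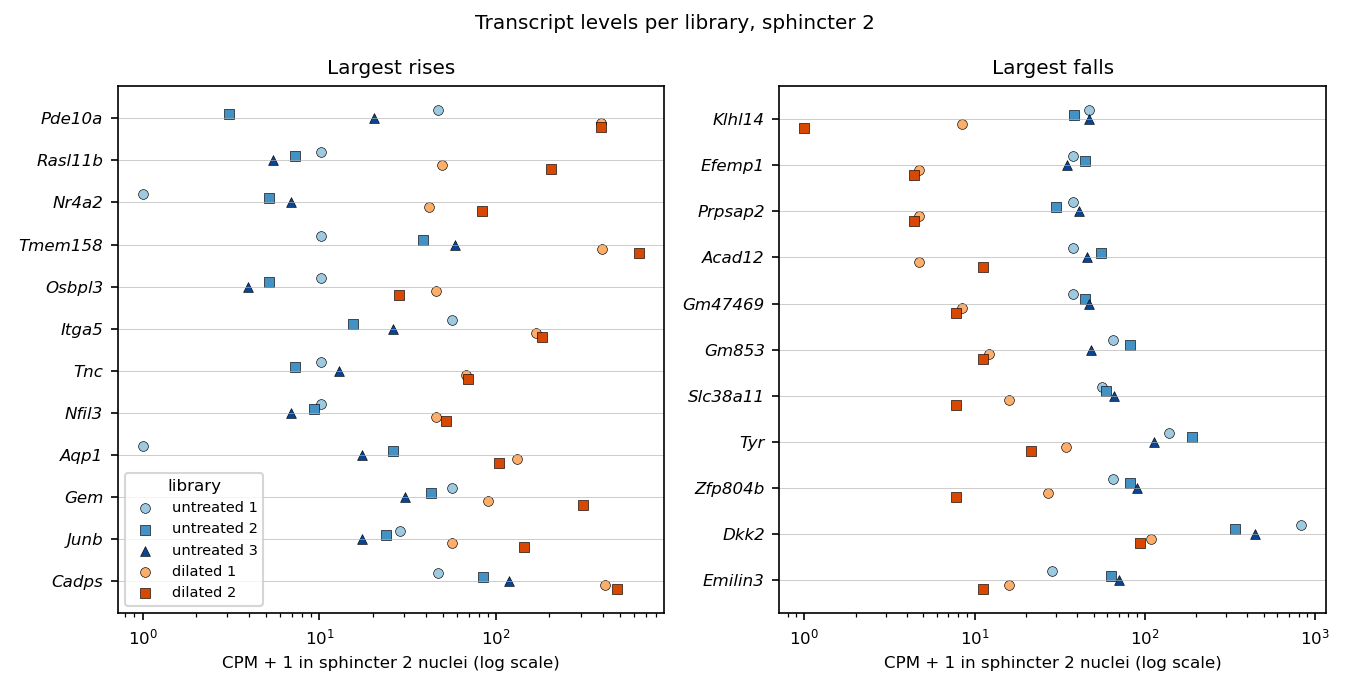
CPM plus 1 in sphincter 2 nuclei on a log axis for the 12 largest rises and 11 of the 12 largest falls whose groups did not overlap, 1 point per untreated or dilated library. *Pde10a* lies at 2.08 to 45.8 CPM in untreated and 392 to 393 CPM in dilated libraries, and *Dkk2* at 337 to 825 CPM and 92.0 to 107 CPM.

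Immediate early genes, which cells transcribe within minutes of a stimulus and without new protein synthesis, formed a list of 42 genes in the matrices, of which 13 were tested. Of these, 4 rose (30.8%, against 1.46% of all genes), none fell, all 13 had a positive log2 fold change, and the median was 1.06 against 0.0095 over all genes tested. The filter asks for a level in as few libraries as the smallest group, the dilated one, holds. A gene low in untreated libraries could thus be tested through the dilated ones alone, which favours rises among low genes. Of the 29 untested genes, 21 had a higher mean CPM in dilated than in untreated libraries, and 3 had no UMI in either. At an unadjusted p under 0.05, 8 were higher and none was lower. limma-voom called 5 rises. DESeq2, whose own filter left the 4 genes that rose without an adjusted p, called none of the 2 it tested. *Nr4a2*, an orphan nuclear receptor (chromosome 2, 57106830 to 57124003, minus strand), stood at 0, 4.16 and 5.93 CPM untreated and 40.7 and 81.8 CPM dilated (3.69 ± 0.70, adjusted p = 0.00149). *Junb*, a subunit of the AP-1 transcription factor, stood at 27.5, 22.9 and 16.3 CPM and 55.6 and 143 CPM (2.38 ± 0.46, adjusted p = 0.00172). *Mcl1*, an inhibitor of apoptosis, stood at 27.5, 33.3 and 20.8 CPM and 81.5 and 146 CPM (2.18 ± 0.38, adjusted p = 0.000597). Dilated libraries were higher without overlap in these 3 genes, and dilated library 2 was the higher of the pair each time. *Btg2*, an antiproliferative protein, stood at 27.5, 43.7 and 23.7 CPM and 40.7 and 242 CPM. It passed the test (2.24 ± 0.48, adjusted p = 0.00626), but dilated library 1 lay within the untreated range. Without dilated library 2 the log2 fold changes of *Nr4a2* (3.05), *Junb* (1.44), *Mcl1* (1.62) and *Btg2* (0.35) did not pass. *Junb* overlaps *Prdx2* in the annotation.

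Many promoters of immediate early genes hold the cAMP response element (CRE, TGACGTCA), which CREB binds, or its shorter core TGACG. The promoters of the 4 genes that rose are shown from 250 bases before to 50 after the start (RefSeq, GRCm38.p6), together with that of *Pdlim3*, an actin-binding gene that also rose and whose promoter holds the whole element. They are printed in the direction of transcription, with CRE and TGACG in capitals on either strand. TGACG is itself part of CRE, and CGTCA is TGACG on the other strand.
Nr4a2: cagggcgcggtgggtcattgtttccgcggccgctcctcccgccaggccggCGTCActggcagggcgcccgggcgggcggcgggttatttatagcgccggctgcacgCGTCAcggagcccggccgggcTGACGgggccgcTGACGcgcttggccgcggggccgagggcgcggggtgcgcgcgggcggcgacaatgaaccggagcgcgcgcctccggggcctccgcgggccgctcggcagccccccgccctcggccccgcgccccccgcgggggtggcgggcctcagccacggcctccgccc
Junb: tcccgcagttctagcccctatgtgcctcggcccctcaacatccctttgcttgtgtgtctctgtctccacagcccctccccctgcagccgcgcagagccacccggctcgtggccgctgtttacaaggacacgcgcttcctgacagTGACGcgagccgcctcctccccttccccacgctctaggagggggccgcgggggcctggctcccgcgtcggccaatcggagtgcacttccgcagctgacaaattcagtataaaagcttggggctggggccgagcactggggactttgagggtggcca
Btg2: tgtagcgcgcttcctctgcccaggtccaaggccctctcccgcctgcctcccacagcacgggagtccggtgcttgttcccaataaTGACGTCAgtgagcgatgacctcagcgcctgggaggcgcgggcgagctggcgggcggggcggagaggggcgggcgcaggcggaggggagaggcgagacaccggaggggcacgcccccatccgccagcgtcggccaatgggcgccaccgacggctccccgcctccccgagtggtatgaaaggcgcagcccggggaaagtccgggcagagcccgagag
Mcl1: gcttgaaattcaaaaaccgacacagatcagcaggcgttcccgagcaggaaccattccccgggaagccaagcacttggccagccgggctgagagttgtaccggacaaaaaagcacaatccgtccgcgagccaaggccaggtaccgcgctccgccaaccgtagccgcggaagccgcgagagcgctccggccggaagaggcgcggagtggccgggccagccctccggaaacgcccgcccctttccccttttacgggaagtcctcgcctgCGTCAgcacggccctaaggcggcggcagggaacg
Pdlim3: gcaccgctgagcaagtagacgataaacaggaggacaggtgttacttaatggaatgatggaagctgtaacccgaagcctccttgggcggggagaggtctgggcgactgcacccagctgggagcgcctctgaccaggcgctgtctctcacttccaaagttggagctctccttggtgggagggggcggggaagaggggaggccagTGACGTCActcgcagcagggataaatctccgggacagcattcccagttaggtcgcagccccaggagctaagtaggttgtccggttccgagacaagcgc
The *Nr4a2* promoter (chr2:57123954-57124253, minus strand) held 4 matches to TGACG and no whole CRE, and those of *Junb* (chr8:84978699-84978998, minus strand) and *Mcl1* (chr3:95658471-95658770, plus strand) held 1 match each. The promoters of *Btg2* (chr1:134079106-134079405, minus strand) and *Pdlim3* (chr8:45885237-45885536, plus strand) held the whole CRE. Shares were counted per gene, with a match in any of its promoters, and a gene with several promoters had more chances of one: 71 of the 98 genes that rose had 95 promoter entries, 72 of the 94 that fell had 109, 5164 of the 6691 tested had 6819, and all 27025 genes with an entry had 32851. CRE was found in 4 of the 71 genes that rose (5.63%), 3 of the 72 that fell (4.17%), 3.82% of genes tested and 2.03% of all genes. TGACG was found in 40.9%, 29.2%, 37.6% and 23.05% in the same order. The AP-1 motif TGANTCA, which does not contain TGACG, was found in 4.23%, 6.94%, 5.85% and 8.97%, and the CArG box, the site of serum response factor, in 2.82%, 0%, 1.78% and 1.81%. A match describes the letters only.

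The 42 immediate early genes summed to 779, 651 and 658 CPM in untreated and 1178 and 2344 CPM in dilated sphincter 2, so that dilated library 2 stood highest. The same order held in the dilator (721, 614 and 696 CPM, then 1546 and 4448 CPM) and in sphincter 1 (774, 708 and 758 CPM, then 796 and 1299 CPM). Of the 25 genes with at least 10 UMIs over both dilated libraries, 19 were higher in dilated library 2. The median log2 fold change of the 13 tested genes was 1.93 without dilated library 1 and 0.63 without dilated library 2. Some genes that differ most between the dilated libraries had too few untreated UMIs to be tested and were picked out after their values were seen. *Nr4a1* stood at 9.16, 0 and 1.48 CPM untreated (1, 0 and 1 UMIs) and 33.3 and 252 CPM dilated (9 and 74 UMIs), and *Fos* at 9.16, 2.08 and 1.48 CPM and 11.1 and 167 CPM. *Sik1*, a kinase gene induced by cAMP, stood at 18.3, 4.16 and 7.41 CPM and 11.1 and 123 CPM. *Fos* and *Sik1* were thus high in dilated library 2 only, whereas *Nr4a1* was above the untreated range in both. *Egr1*, also an immediate early gene, did not follow, with 18.3, 0 and 1.48 CPM untreated and 11.1 and 0 CPM dilated, while the same dilated libraries had 83.9 and 255 CPM in the dilator. A *Nr4a1* UMI was found in 8.45% of nuclei of dilated library 1 and 27.9% of dilated library 2, against 0.568% over untreated nuclei.

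**Figure D3:**
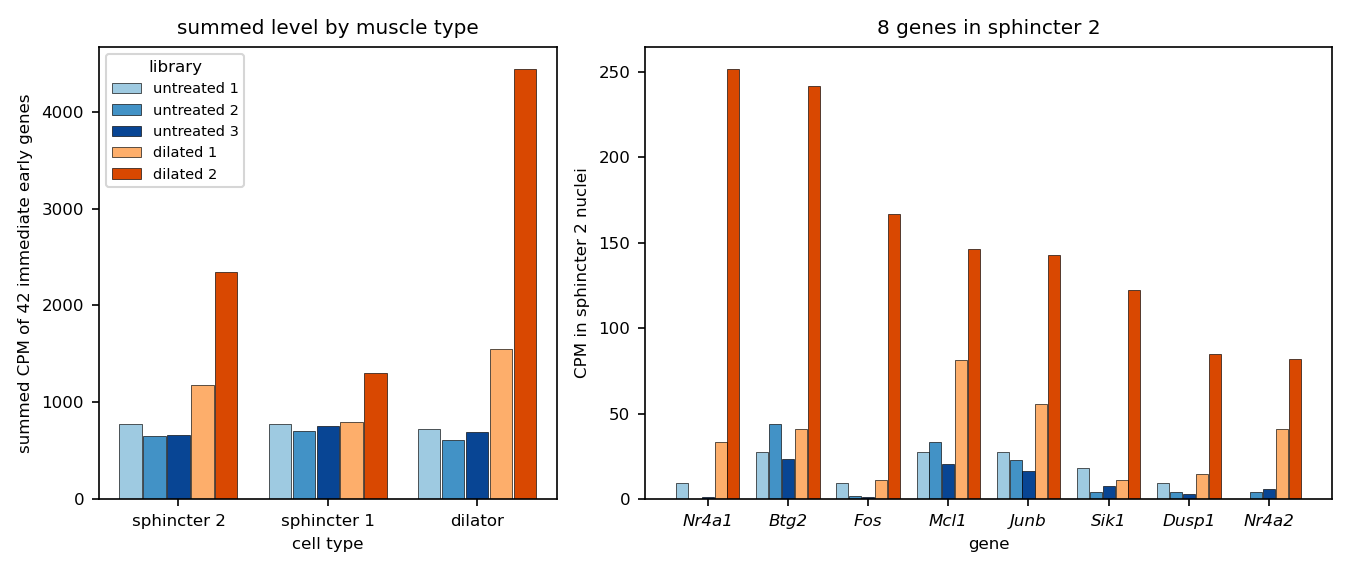
Left, summed CPM of the 42 immediate early genes in sphincter 2, sphincter 1 and dilator nuclei, 1 bar per untreated or dilated library; right, CPM in sphincter 2 of 7 immediate early genes and of *Sik1* in the same libraries. Dilated library 2 is the highest bar in each of the 3 muscles (2344, 1299 and 4448 CPM).

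Genes of the actin cytoskeleton and its anchorage rose in part. Of 39 tested actin crosslinkers, LIM proteins and focal adhesion proteins, 9 rose (23.1%, against 1.46% of all genes) and none fell, with a median log2 fold change of 0.49 against 0.0095 over all genes. At an unadjusted p under 0.05, 19 were higher and 3 lower (edgeR), and DESeq2 called 8 rises and limma-voom 9. *Csrp1*, a LIM protein of smooth muscle, stood at 559, 653 and 534 CPM untreated and 967 and 1642 CPM dilated (1.25 ± 0.23, adjusted p = 0.000839). Its relative *Csrp2* stood at 220, 250 and 268 CPM and 511 and 1063 CPM (1.74 ± 0.25, adjusted p = 3.59e-05). *Pdlim5*, a PDZ and LIM protein at actin filaments, stood at 174, 135 and 142 CPM and 352 and 467 CPM (1.58 ± 0.23, adjusted p = 6.75e-05). Each was higher in both dilated libraries than in any untreated one. *Pdlim3* (0.85 ± 0.21), the crosslinker *Actn1* (1.04 ± 0.22), the membrane linker *Svil* (0.76 ± 0.21), the actin assembly factor *Enah* (0.83 ± 0.22) and the adaptor *Sh3d19* (0.84 ± 0.20) also rose without overlap. Without dilated library 2 the log2 fold changes of *Csrp1* (0.74), *Pdlim3* (0.62), *Svil* (0.75), *Enah* (0.54) and *Sh3d19* (0.48) no longer passed. That of *Csrp2* was 1.03 and still did. The list's median lay between 0.44 and 0.61 with 1 library left out, and was 0.67 with nuclei thinned to 1000 UMIs. Its 48 genes in the matrices summed to 11199 to 13853 CPM in untreated and 17162 to 17517 CPM in dilated libraries. Constricted libraries lay between, at 13965 to 14871 CPM, and also above every untreated one.

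Of 31 tested genes of the contractile apparatus itself, 2 rose (6.45%, against 1.46% of all genes) and none fell, with a median log2 fold change of 0.34. At an unadjusted p under 0.05, 13 were higher and 2 lower (edgeR). The 35 genes of this list in the matrices summed to 20945 to 22529 CPM in untreated and 23899 to 24906 CPM in dilated libraries. Constricted libraries, at 24621 to 25393 CPM, also lay above every untreated one, so a higher sum was not particular to dilation. *Cnn1*, the actin-binding calponin of smooth muscle, stood at 91.6, 139 and 120 CPM untreated and 148 and 378 CPM dilated (1.19 ± 0.30, adjusted p = 0.0208), and *Actg2*, enteric smooth muscle actin, at 73.3, 49.9 and 26.7 CPM and 156 and 81.8 CPM (1.57 ± 0.38, adjusted p = 0.0181). In both the groups did not overlap, though by a small margin. The call of *Cnn1* was lost without dilated library 2 (log2 fold change 0.27) and without each untreated library, and that of *Actg2* without dilated library 1 or untreated libraries 2 or 3; DESeq2 and thinned nuclei called neither, and limma-voom did not call *Cnn1*. Among the abundant contractile genes, smooth muscle myosin *Myh11* averaged 2801 ± 344 CPM untreated (SD, n = 3) and 3469 ± 34.6 CPM dilated (SD, n = 2; log2 fold change 0.38, adjusted p = 0.34, edgeR), and smooth muscle actin *Acta2* 1293 ± 237 CPM and 1460 ± 561 CPM (0.30, adjusted p = 0.631, edgeR); neither passed. *Tagln*, an actin-binding protein of smooth muscle, had 1393, 878 and 984 CPM untreated and 1278 and 1928 CPM dilated, which overlap (0.69 ± 0.23, adjusted p = 0.115).

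Of 24 tested integrin and basement membrane genes, 5 rose (20.8%, against 1.46% of all genes) and none fell, with a median of 0.40. The 41 genes of this list in the matrices summed to 2565 to 2968 CPM in untreated and 2548 to 2923 CPM in dilated libraries, which overlap. In constricted libraries they summed to 3110 to 3753 CPM. *Itga5*, the integrin chain that binds fibronectin (chromosome 15, 103344286 to 103366763, minus strand), stood at 55.0, 14.6 and 25.2 CPM untreated and 167 and 181 CPM dilated (2.90 ± 0.35, adjusted p = 2.21e-06). Its partner chain *Itgb1* stood at 174, 142 and 166 CPM and 296 and 303 CPM (1.00 ± 0.22, adjusted p = 0.00802). *Tnc*, the matrix protein tenascin C, stood at 9.16, 6.24 and 11.9 CPM and 66.7 and 68.1 CPM (2.86 ± 0.54, adjusted p = 0.00149). In these 3 genes the dilated libraries were close to each other and well above the untreated ones. The collagen IV genes *Col4a1* (1.59 ± 0.44) and *Col4a2* (1.60 ± 0.35) also rose. They lie head to head and overlap in the annotation. *Itga5* was called under all 17 alternatives, *Itgb1* under 14 of 17 and *Tnc* under 14 of the 15 that tested it. *Col4a2* was called under 13 of 16 and *Col4a1* under 6 of 15. Without untreated library 2 or 3 the calls of *Itgb1*, *Col4a1* and *Col4a2* were lost. Without dilated library 2 the log2 fold changes of *Tnc* (2.79), *Itgb1* (0.92) and *Col4a1* (1.58) did not pass. An *Itga5* UMI was found in 7.39% of untreated and 33.8% of dilated nuclei, 1.42% and 10.8% after thinning. The sign of the list's median turned to -0.23 with thinned nuclei, where fewer members were tested.

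The receptors that the drops act on did not pass the test, except that *Chrm2* was called as a fall with the library series as a block (log2 fold change -0.86, adjusted p = 0.0364, edgeR). *Chrm3*, the main muscarinic receptor of the sphincter, stood at 660, 543 and 792 CPM untreated and 578 and 351 CPM dilated (-0.45 ± 0.22, adjusted p = 0.372). *Chrm2* stood at 211, 194 and 181 CPM and 159 and 78.4 CPM (-0.63 ± 0.31, adjusted p = 0.366), and *Adra1a*, the alpha-1A adrenergic receptor, at 247, 196 and 234 CPM and 252 and 167 CPM (-0.02, adjusted p = 0.989). Untreated *Adra1a* averaged 479 CPM in the dilator and 22.3 CPM in sphincter 1. Of the 3, *Chrm2* had both dilated libraries below every untreated one, and 1 had an unadjusted p under 0.05. DESeq2 and limma-voom called none, and the other receptor genes were too low to be tested. Downstream, 1 of 31 tested Gq and calcium store genes rose (3.23%, against 1.46% of all genes) and none fell, with a median of -0.06. That gene was *Atp2a2*, the pump that returns calcium to the sarcoplasmic reticulum, at 302, 331 and 317 CPM untreated and 493 and 647 CPM dilated (0.92 ± 0.22, adjusted p = 0.0121). It was called under 13 of 17 alternatives. Without dilated library 2 its log2 fold change was 0.64 and did not pass.

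Among 8 tested calcium channel genes and their inhibitors, 2 rose (25%, against 1.46% of all genes) and none fell, with a median of 0.41. *Cacna2d3*, an auxiliary subunit that brings calcium channels to the membrane, stood at 431, 420 and 445 CPM untreated and 963 and 801 CPM dilated (1.10 ± 0.20, adjusted p = 0.00109); *Gm48003*, which overlaps it, was also called. *Gem*, a GTPase that inhibits voltage-gated calcium channels (chromosome 4, 11704457 to 11714752, plus strand), stood at 55.0, 41.6 and 29.7 CPM and 88.9 and 310 CPM (2.51 ± 0.39, adjusted p = 0.000153). Both were separate between the groups, and *Gem* again stood highest in dilated library 2, without which its log2 fold change was 1.26 and did not pass. Of 14 tested potassium channel genes, 2 rose (14.3%) and 1 fell (7.14%, against 1.4% of all genes), with a median of -0.19. *Kcnma1*, the BK channel, which opens on calcium and depolarization and relaxes smooth muscle, stood at 82.5, 97.8 and 91.9 CPM and 263 and 293 CPM (1.66 ± 0.25, adjusted p = 8.49e-05). *Kcnd3*, an A-type channel, stood at 137, 181 and 203 CPM and 567 and 412 CPM (1.49 ± 0.25, adjusted p = 0.000534). *Kcnip4*, an auxiliary subunit of A-type channels, fell from 3289, 3203 and 3259 CPM to 1911 and 1025 CPM (-1.08 ± 0.21, adjusted p = 0.00172). The groups did not overlap in any of the 3. Without dilated library 2 the log2 fold change of *Kcnip4* was -0.74 and did not pass.

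In cyclic nucleotide signalling, 2 of 11 tested phosphodiesterase genes rose (18.2%, against 1.46% of all genes) and none fell (median 0.46). Of 22 tested genes of cAMP synthesis, protein kinase A and CREB, 0 passed in either direction (median 0.37). Beside *Pde10a*, the other phosphodiesterase was *Pde3b*, which breaks down mainly cAMP, at 64.1, 35.4 and 48.9 CPM untreated and 81.5 and 187 CPM dilated (1.65 ± 0.36, adjusted p = 0.00738), and without dilated library 2 its log2 fold change was 0.85 and did not pass. At an unadjusted p under 0.05, 4 of the 22 were higher and 1 was lower (edgeR), DESeq2 called none of the 13 to which it gave an adjusted p and limma-voom called 2 as rises. In the ERK feedback list 2 genes were tested and *Tmem158* was the 1 that rose.

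Of 28 tested genes of exocytosis and the presynaptic site, 2 rose (7.14%) and 3 fell (10.7%), with a median of -0.16. Over all genes 1.46% rose and 1.4% fell. *Cadps*, which primes dense-core vesicles, stood at 45.8, 83.2 and 117 CPM untreated and 411 and 480 CPM dilated (2.33 ± 0.25, adjusted p = 2.12e-07). *Nptx2*, a secreted pentraxin of neurons and in the paper a sphincter 1 marker, stood at 55.0, 37.5 and 19.3 CPM and 92.6 and 85.2 CPM (1.60 ± 0.41, adjusted p = 0.0225). The synaptic vesicle protein *Synpr* fell from 907, 1323 and 1253 CPM to 530 and 559 CPM (-1.03 ± 0.23, adjusted p = 0.00782). *Unc13c*, another priming factor (-0.98 ± 0.23), and *Sybu*, a linker of vesicles to kinesin (-1.47 ± 0.26), also fell. No group of libraries overlapped in these 5 genes. *Cadps* and *Sybu* were called under all 17 alternatives, *Unc13c* under 14 and *Synpr* under 13. *Nptx2* was called under 11 of the 16 that tested it. The calls of *Nptx2* and *Synpr* were lost without either dilated library, and that of *Unc13c* without dilated library 2. *Syt1*, the calcium sensor of vesicle fusion, had 1713, 2212 and 2412 CPM and 1396 and 1346 CPM and did not pass (-0.56 ± 0.20, adjusted p = 0.149).

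Neuronal adhesion and axon guidance genes fell in part. Of 62 tested, 9 fell (14.5%, against 1.4% of all genes) and none rose, with a median of -0.37, and 40 of the 62 had a negative log2 fold change. At an unadjusted p under 0.05, 22 were lower and 2 higher (edgeR), and DESeq2 called 6 falls and limma-voom 8. *Robo2*, a receptor for Slit guidance cues, fell from 504, 566 and 468 CPM to 159 and 167 CPM (-1.57 ± 0.25, adjusted p = 0.000262). *Alcam*, an adhesion molecule, fell from 705, 383 and 568 CPM to 185 and 215 CPM (-1.33 ± 0.25, adjusted p = 0.00165), and *Nlgn1*, a postsynaptic partner of neurexins, from 431, 556 and 574 CPM to 311 and 160 CPM (-1.11 ± 0.26, adjusted p = 0.0144). Dilated values were below all untreated values in the 3 genes. The others were *Cntnap4*, *Ntng1*, *Tenm2*, *Il1rapl2*, *Pcdh9* and *Cdh20*, with log2 fold changes from -1.73 (*Il1rapl2*) to -0.82 (*Tenm2*, adjusted p = 0.0493). Without dilated library 2 these others and *Nlgn1* did not pass, with log2 fold changes from -1.24 (*Cntnap4*) to -0.51 (*Tenm2*).

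The Wnt list had 2 falls (6.90%, against 1.4% of all genes) and no rise among 29 tested genes, with a median of -0.20. *Dkk2*, a secreted ligand that blocks Wnt coreceptors (chromosome 3, 132085292 to 132180304, plus strand), fell from 825, 337 and 440 CPM to 107 and 92.0 CPM (-2.22 ± 0.30, adjusted p = 1.74e-05), and *Nkd1*, a feedback inhibitor of the Wnt pathway, from 302, 250 and 310 CPM to 170 and 116 CPM (-0.93 ± 0.24, adjusted p = 0.0282). Both groups were apart. *Dkk2* was called under all 17 alternatives and *Nkd1* under 12 of 17. *Dkk2* is also expressed in stroma 2, where it averaged 1274 CPM untreated and 1810 CPM dilated. The stroma 2 marker *Tfap2b* stood at 0, 16.6 and 25.2 CPM and 14.8 and 17.03 CPM in the same sphincter 2 libraries, against 2698 CPM in untreated stroma 2. *Wif1*, the other secreted Wnt inhibitor of these cells, averaged 475 ± 130 CPM untreated and 493 ± 131 CPM dilated (0.17, adjusted p = 0.835, edgeR).

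The largest falls by ratio, in *Klhl14* and *Efemp1*, were in genes of low level. *Dkk2*, described above and of higher level, was also among the 12 largest falls. *Klhl14*, a kelch-like protein, stood at 45.8, 37.5 and 46.0 CPM untreated and 7.41 and 0 CPM dilated (-3.38 ± 0.75, adjusted p = 0.00782), with 43 of 352 untreated and 2 of 157 dilated nuclei holding a UMI (12.2% and 1.27%). Its log2 fold change was -2.45 without dilated library 2, where it did not pass, and -6.76 without dilated library 1. *Efemp1*, a fibulin of the matrix, stood at 36.6, 43.7 and 34.1 CPM and 3.70 and 3.41 CPM (-3.22 ± 0.76, adjusted p = 0.013), which is 1 UMI in each dilated library. It was called under 11 of the 15 alternatives that tested it, and under neither that left out a dilated library. *Tyr*, tyrosinase, which makes pigment, stood at 137, 187 and 113 CPM and 33.3 and 20.4 CPM (-2.36 ± 0.42, adjusted p = 0.000821). The groups did not overlap in any of these genes, which the choice of these genes required. *Tyr* was higher in other cells and fell there too. It averaged 1214 CPM untreated and 276 CPM dilated in the dilator, and 1959 and 863 CPM in iris pigment epithelium. The part of such transcripts in its sphincter 2 fall was not tested, and its call was lost with thinned nuclei. *Prpsap2*, *Acad12*, *Gm47469*, *Gm853*, *Slc38a11*, *Zfp804b* and *Emilin3* also fell, by log2 fold changes from -3.11 to -2.19. Among abundant transcripts, *AC129186.1* fell from 1145, 1267 and 1362 CPM to 252 and 347 CPM (-1.99 ± 0.24, adjusted p = 2.21e-06), and *Nav3*, a microtubule-binding protein, from 1924, 1294 and 1491 CPM to 611 and 600 CPM (-1.27 ± 0.21, adjusted p = 0.000275).

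Of the remaining functional lists, glucocorticoid-responsive genes had 3 rises in 9 tested (33.3%, against 1.46% of all genes) and the median 0.93. The rises were *Zbtb16* (1.64 ± 0.34), *Klf9* (1.27 ± 0.35) and the metallothionein *Mt1* (0.93 ± 0.26). *Zbtb16* stood at 147, 37.5 and 68.2 CPM untreated and 133 and 255 CPM dilated, so that its groups overlapped. Without dilated library 2 the log2 fold changes of *Zbtb16* (1.02), *Klf9* (1.02) and *Mt1* (0.66) did not pass. Heat shock and ubiquitin genes had 1 rise in 15 (6.67%, median 0.44). Circadian genes had 1 rise in 14 (7.14%), *Nfil3*, with a median of 0.22. Pigment genes had 1 rise in 15 (6.67%), *Gpnmb*, and 2 falls (13.3%, against 1.4% of all genes), with a median of -0.01. The falls were *Tyr* and *Rab38*, which traffics melanosome proteins.

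**Figure D4:**
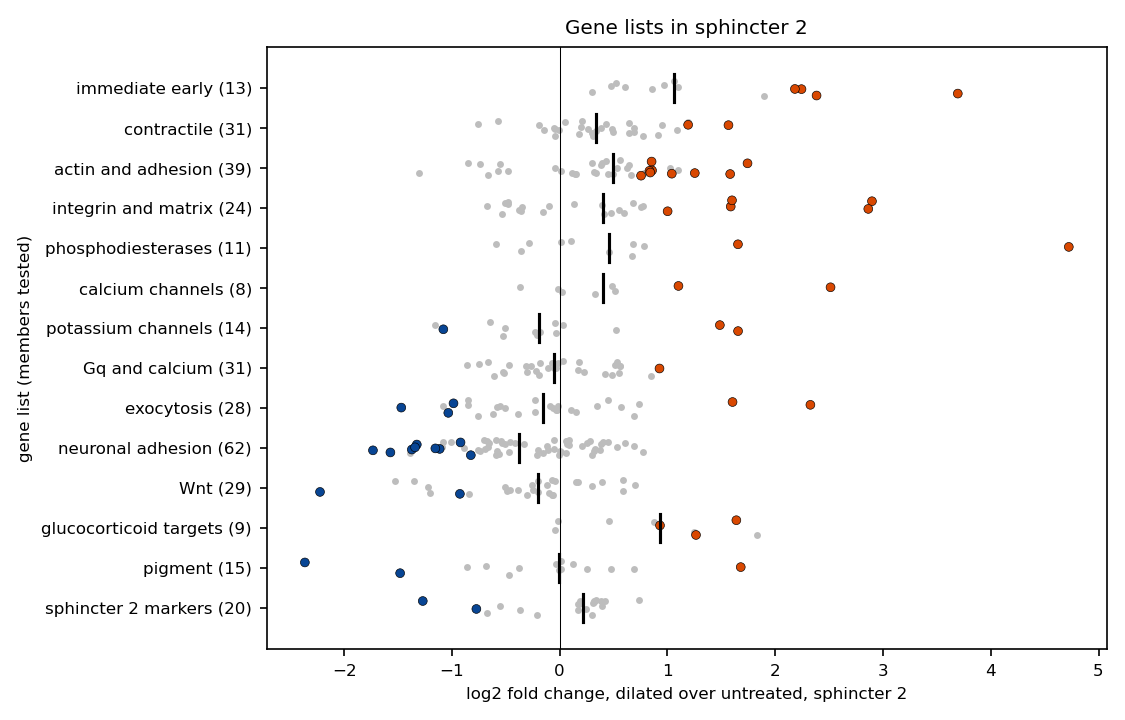
Log2 fold changes, dilated over untreated in sphincter 2, of the tested members of each gene list (grey points, with called members coloured and the median as a bar). The medians of the immediate early (1.06) and actin and adhesion lists (0.49) lie to the right of 0 and that of neuronal adhesion (-0.37) to the left.

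The cluster markers of the iris cell types served as a check on other cells and on identity. The study chose them on these samples, so their direction is not independent evidence. Beside their counts, 1.46% of all genes tested rose and 1.4% fell. Of the sphincter 2 markers, 2 of 20 fell (*Nav3* and *Lmo4*, a LIM-only transcription cofactor) and none rose, with a median of 0.22, and their summed level was 30884 to 31828 CPM in untreated and 31838 to 32261 CPM in dilated libraries. Sphincter 1 markers had 3 rises (*Csrp2*, *Kcnma1* and *Acss1*) and 2 falls in 18 tested (median 0.21). Their summed level was 10838.5 to 11457.8 CPM in untreated and 11627.4 to 12495.5 CPM in dilated libraries. Dilator markers had 2 rises, *Gpnmb* among them, and 3 falls (*AC129186.1*, *Unc13c* and *Kcnip4*) in 20 (median -0.21). Their summed level was 22767 to 25457 CPM untreated and 18869 to 23022 CPM dilated. In the dilator itself *Kcnip4* averaged 5105 CPM untreated and 2893 CPM dilated. Pigment epithelium markers had 3 falls in 16 (*Cadm2*, *Sntg1* and *Pcdh9*; median -0.68, but -0.0586 without doublets and -0.18 with at least 50 UMIs per gene, and *Sntg1* and *Pcdh9* were not called without doublets), with a sum of 2331 to 3179 CPM untreated and 1465 to 2260 CPM dilated, and the epithelial marker *Zic1* at 13.3 to 36.6 CPM and 6.81 to 14.8 CPM. Stroma 2 markers had 1 fall in 14 (*Dkk2*; median 0.01), with a sum of 1313 to 1851 CPM untreated and 1004 to 1243 CPM dilated. The part of such transcripts in the falls of *Cadm2*, *Sntg1*, *Pcdh9*, *Dkk2*, *AC129186.1*, *Unc13c* and *Kcnip4* was not tested. Nor was it tested for the rises of *Gpnmb*, *Csrp2*, *Kcnma1*, *Acss1* and *Nptx2*. Stroma 1 markers had 1 rise in 14 (*Arhgef37*; median -0.10), ciliary body markers 2 rises and 1 fall in 16 (*Ppp2r2b* and *Pde10a*; *Pld5*; median 0.06) and ciliary body epithelium markers 0 calls in 11 (median 0.19) by edgeR and limma-voom and 0 of the 5 with an adjusted p by DESeq2, with 2 higher and 2 lower at an unadjusted p under 0.05. Of the leukocyte markers 1 was tested (log2 fold change 0.25, not called), and no endothelial, Schwann cell or neuron marker reached the level for testing.

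The response of sphincter 2 was then set against that of sphincter 1, the other sphincter cluster, in a joint fit with a term for each library (log2 differences below are the effect in sphincter 2 minus that in sphincter 1). Over 7719 genes, the effect was higher in sphincter 2 for 145 (1.88%) and lower for 112 (1.45%) at an adjusted p under 0.05. Of the 98 genes that rose in sphincter 2, 43 differed, 42 of them more positive in sphincter 2, and of the 94 that fell, 45 differed, all more negative. Of the rises 92 were tested in sphincter 1 alone, with a median log2 fold change of 1.25 in sphincter 2 and 0.32 in sphincter 1, and of the falls 86, with -1.31 and -0.10. In sphincter 1, 9 of these rises and 3 of these falls were called in the same direction. In the opposite direction 5 rises and 3 falls were called. How many of all genes tested in sphincter 1 were called was not counted. These genes were chosen by their change in sphincter 2, which favours such a gap. *Acss1* had the smallest p: it rose in sphincter 2 and had a log2 fold change of -2.48 in sphincter 1 (difference 4.18, adjusted p = 1.67e-18). *Csrp2* (-0.84 in sphincter 1; difference 2.57, adjusted p = 9.06e-14), *Kcnma1* (-1.29; 2.78, adjusted p = 1.6e-11) and *Clic4*, a chloride channel protein (-0.98; 2.60, adjusted p = 1.24e-09), also had log2 fold changes of opposite sign. *Acss1*, *Csrp2* and *Kcnma1* are among the sphincter 1 markers, and untreated *Kcnma1* averaged 1091 CPM in sphincter 1 against 90.7 CPM in sphincter 2; after dilation the means were 426 and 278 CPM. In the other direction stood *Sybu* (difference -2.37, adjusted p = 1.83e-08), *Pld5*, a phospholipase D family member (-1.89, adjusted p = 2.52e-07), and *Rab38* (-2.25, adjusted p = 1.46e-06). Of the 9 actin and adhesion genes that rose, 5 differed from sphincter 1, and of the 9 neuronal adhesion genes that fell, 6 did. The receptor *Chrm2* had a log2 fold change of -2.68 in sphincter 1 (difference 2.03, adjusted p = 5.43e-05), and *Chrm3* 0.25 (difference -0.71, adjusted p = 0.0202).

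Against the dilator, which the same drops contract, the effect was higher in sphincter 2 for 89 of 12671 genes (0.702%) and lower for 177 (1.4%). Of the 98 rises 27 differed, 11 of them more positive in sphincter 2, and of the 94 falls 14 differed, 3 more positive and 11 more negative. The median log2 fold change in the dilator was 1.19 over the 96 rises tested there and -0.90 over the 94 falls. Called in the same direction in the dilator were 73 of these rises and 63 of these falls. In the opposite direction 0 rises and 1 fall were called. The shares over all genes in the dilator and in sphincter 1 were not counted, so these counts cannot be compared between the 2 muscles. The dilator had 11606 nuclei against 1011 in sphincter 1, which favours calls in the dilator. Of the 9 actin and adhesion genes that rose 1 differed from the dilator. Of the 9 neuronal adhesion genes that fell 2 did. *Wif1* had the smallest p, at 0.17 in sphincter 2 and 2.33 in the dilator (difference -2.11, adjusted p = 1.85e-26). *Anks1b*, an ankyrin-repeat scaffold (-2.85, adjusted p = 5.1e-16), *Zfp804b*, a zinc finger protein (-3.79, adjusted p = 4.68e-15), and *Btg2* (-3.26, adjusted p = 2.92e-14) also had the lower effect in sphincter 2. In *Btg2* sphincter 2 reached 29.1% and 23.6% of the dilator level in dilated libraries 1 and 2, and in *Pde10a* 30.1% and 29.3% (difference -1.61, adjusted p = 0.0171). *Slc26a4*, an anion exchanger with a log2 fold change of 3.95 in the dilator, reached 4.41% and 2.01% and was too low to be tested in sphincter 2, with 0, 6.24 and 5.93 CPM untreated and 18.5 and 6.81 CPM dilated. The contractile gene *Myh11* (difference 0.94, adjusted p = 3.88e-07), the diacylglycerol kinase gene *Dgki* (1.05, adjusted p = 1.46e-08), the hydrolase gene *Macrod2* (1.00, adjusted p = 1.25e-07) and the matrix gene *Npnt* (1.24, adjusted p = 1.25e-07) had negative log2 fold changes in the dilator and positive ones in sphincter 2 that did not pass. *Kcnma1* differed here too (2.02, adjusted p = 1.32e-05), as did *Itga5* (1.47, adjusted p = 0.00285) and *Rasl11b* (2.46, adjusted p = 0.00232), whereas for *Tmem158* the log2 fold change was higher in the dilator (4.87; difference -1.20, adjusted p = 0.00589) although its level there was lower.

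**Figure D5:**
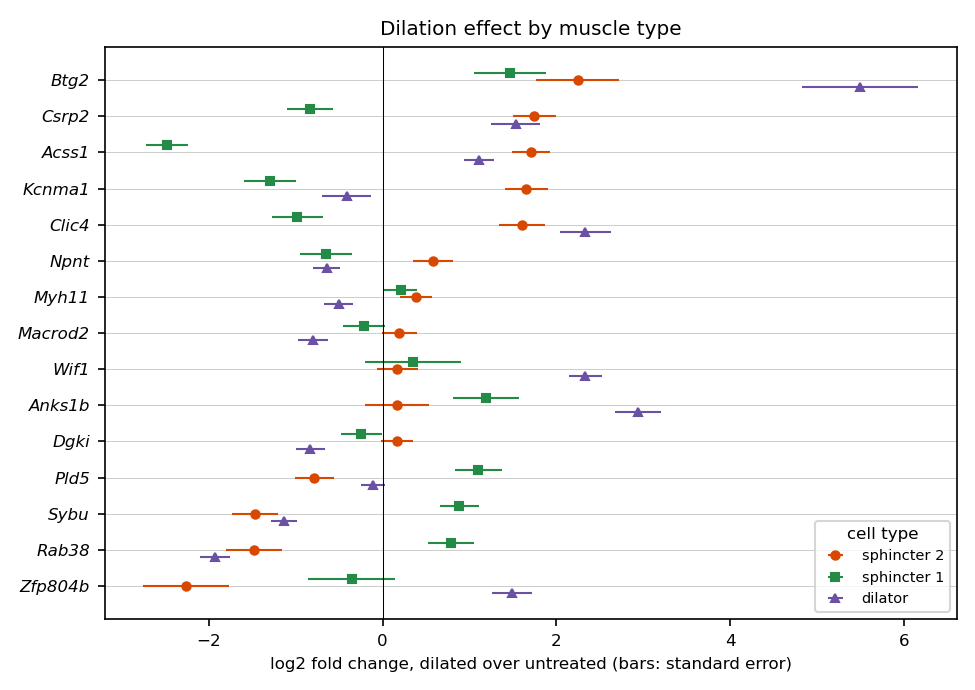
Log2 fold change of dilated over untreated libraries, with its standard error as a bar, in sphincter 2, sphincter 1 and dilator for 15 of the 16 genes with the smallest p in the comparisons of the dilation effect between muscles. *Acss1* lies at 1.71 in sphincter 2 and -2.48 in sphincter 1, and *Wif1* at 0.17 in sphincter 2 and 2.33 in the dilator.

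Constriction changed few genes in sphincter 2. In the same fit, and with the same untreated libraries as reference, 4 of 6691 genes rose (0.0598%) and 2 fell (0.0299%), with 397 at an unadjusted p under 0.05 against 897 for dilation. *Ptprz1*, a receptor tyrosine phosphatase, stood at 733, 196 and 125 CPM untreated, 773, 1148 and 857 CPM constricted and 88.9 and 71.5 CPM dilated, with log2 fold changes of 1.75 on constriction and -1.71 on dilation. Its untreated libraries spread widely, and untreated library 1 was almost as high as the constricted ones. *Pcsk5*, a proprotein convertase, fell in both conditions (-1.31 on constriction, -1.28 on dilation). *Ptn*, the growth factor pleiotrophin and ligand of the phosphatase that *Ptprz1* encodes, fell on constriction (-1.82) and had a log2 fold change of 0.08 on dilation. The 3 other genes that rose on constriction were *Nckap5* (1.84), *Pappa*, a metalloprotease that cleaves binding proteins of insulin-like growth factors (1.07), and *Gm14661* (2.85). The median log2 fold change on constriction was 0.19 over the 98 genes that rose on dilation and -0.07 over the 94 that fell.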

How the data were processed

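The data were snRNAseq libraries of mouse iris, 3 untreated, 3 constricted and 2 dilated. The authors prepared nuclei with 10× Genomics Chromium v3 chemistry, counted UMIs over exons and introns of mm10 with Cell Ranger 3.1.0 and clustered with Seurat, removing nuclei above 1% mitochondrial transcripts and those with fewer than 500 or more than 6000 transcripts. The deposited counts are whole-number UMIs per gene and nucleus, for 22873 genes, without normalization, and the authors also deposited a cell type for each nucleus. They tested pooled nuclei; here the libraries, each from its own pool of irises, were the replicates.

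UMIs of sphincter 2 nuclei were summed per library and fitted with edgeR 4.0.16 (R 4.3.3) over all 8 libraries, with trimmed mean of M-values (TMM) scaling, filterByExpr and the two-sided quasi-likelihood test. The standard error of a gene was its log2 fold change over the root of F. A call needed a change beyond 0.6 on the log2 scale, in either direction, with a Benjamini-Hochberg adjusted p under 0.05. Differences between muscles were tested as an interaction with a term for each library, at an adjusted p under 0.05. Constricted libraries shared the spread estimate. The test was also run on counts simulated with the same spread for all genes and no effect of single libraries. That run cannot show how the test copes with the dependence on single libraries seen here. DESeq2 1.42.0 and limma 3.58.1 (voom) served as alternatives, beside other scalings, filters, library sets and thinned nuclei. Scrublet (scanpy 1.11.5) called 341 of 34357 nuclei doublets, 17 of them in sphincter 2. They were kept in the sums and left out in an alternative. Of the nuclei, 400 had a barcode that occurs in 2 or more libraries and were kept. Summed UMIs per library set the precision: 3 UMIs, taken as the floor, were 27.5, 6.24 and 4.45 CPM in untreated libraries 1 to 3 and 11.1 and 10.2 CPM in dilated libraries 1 and 2. In all, 18458 genes had a UMI in the 5 libraries, and 2923 genes with 30 or more UMIs over the 8 libraries went untested by the filter. As the dilated libraries alone can meet the filter, it favours rises among genes that are low in untreated libraries, in every list.

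Many genes were named by rule. The rules took the 12 largest rises and 12 largest falls among genes called without overlap between groups. They also took members of 29 gene lists (up to 4 with the largest change and all called) and genes chosen by name (among them *Egr1*, *Slc26a4* and the receptors). Last came the 4 genes of smallest p in each direction of each interaction. Other genes were given outside these rules. They included genes called under every alternative, on constriction or with overlapping library values, identity markers, and genes picked after their values were seen. A few genes that these rules name are not reported here. The members and the lists were chosen with earlier results of these data known. Positions came from the GENCODE annotation of mm10, which matched 22511 of 22873 names, and promoter sequences from RefSeq.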

Additional observations from a re-analysis of the deposited data

Results flagged for a closer look

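These are differences of the dilation effect between muscles that passed edgeR's quasi-likelihood test of the interaction (Benjamini-Hochberg adjusted p under 0.05). Each value is the log2 fold change in sphincter 2 minus that in the other muscle, over 2 dilated and 3 untreated libraries.

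Against sphincter 1 the effect was more positive in sphincter 2 for *Rasl11b* (4.66), *Acss1* (4.18), *Tnc* (3.16), *Kcnma1* (2.78), *Clic4* (2.60), *Csrp2* (2.57), *Cadps* (2.55), *Itga5* (2.05), *Chrm2* (2.03), *Gem* (1.85), *Pde10a* (1.67) and *Npnt* (1.25). It was more negative for *Klhl14* (-4.08), *Gm853* (-3.38), *Sybu* (-2.37), *Rab38* (-2.25), *Dkk2* (-2.14), *Pld5* (-1.89) and *Chrm3* (-0.71). Adjusted p-values ran from 1.67e-18 for *Acss1* to 0.0441 for *Pde10a*. The muscarinic receptors went opposite ways relative to sphincter 1, and neither *Chrm2* nor *Chrm3* was called in sphincter 2 alone without a block for the library series.

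Against the dilator the effect was more positive in sphincter 2 for *Rasl11b* (2.46), *Kcnma1* (2.02), *Itga5* (1.47), *Npnt* (1.24), *Dgki* (1.05), *Macrod2* (1.00) and *Myh11* (0.94). It was more negative for *Zfp804b* (-3.79), *Btg2* (-3.26), *Anks1b* (-2.85), *Wif1* (-2.11), *Gm853* (-1.83), *Dkk2* (-1.66), *Pde10a* (-1.61), *Junb* (-1.60), *Tmem158* (-1.20) and *Pld5* (-0.70). Adjusted p-values ran from 1.85e-26 for *Wif1* to 0.0477 for *Gm853*. *Kcnma1*, *Rasl11b*, *Itga5* and *Npnt* thus had a more positive effect in sphincter 2 than in either other muscle, and *Dkk2*, *Gm853* and *Pld5* a more negative one.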

How the results depend on the processing

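Against 98 rises and 94 falls in sphincter 2, scaling by total UMIs gave 64 and 110, DESeq2 43 and 47, limma-voom 151 and 82, the library series as a block 191 and 159, and nuclei thinned to 1000 UMIs 40 and 38, with fewer genes tested in the last. Leaving out 1 library gave 29 to 108 rises and 16 to 76 falls, the fewest rises without untreated replicate 3 (29 and 32) and the fewest falls without dilated replicate 2 (32 and 16), while leaving out untreated replicate 2 gave 39 and 42 and dilated replicate 1 108 and 62. Without a dilated library, the remaining one is assumed to vary like the other groups. DESeq2 size factors, the filters on low counts, the 5 libraries alone, and the removal of doublets or of nuclei with a *Nos1* UMI kept both counts within 1.5 times, as did every alternative for the differences between muscles. Replicate numbers did not pair the libraries (correlations of same-numbered deviations from -0.026 to 0.184), and the replicate block gave 111 rises and 121 falls. Every called gene that an alternative tested kept its sign, which is favoured because the alternatives use the libraries that gave the calls. Except where fewer genes or libraries were tested, the cause was not tested.

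List medians moved by more than the spread as follows (log2). Total UMIs gave 0.26 for contractile genes and 0.13 for sphincter 2 markers. The replicate block gave 0.20 for integrins and matrix, 0.18 for cAMP and CREB genes and -0.16 for stroma 2 markers. Thinning gave 0.67 for actin and adhesion, -0.23 for integrins and matrix, 0.67 for cAMP and CREB genes, -0.39 for exocytosis, 0.78 for heat shock and -0.65 for stroma 1 markers. Pigment epithelium (IPE) markers were at -0.18 with at least 50 UMIs and -0.0586 without doublets, and phosphodiesterases at 0 with no filter. Leaving out 1 library gave ranges of 0.28 to 0.44 for contractile genes, 0.44 to 0.61 for actin and adhesion, 0.22 to 0.46 for integrins and matrix, 0.63 to 1.93 for immediate early genes, 0.17 to 0.36 for cAMP and CREB genes, -0.36 to -0.14 for exocytosis, -0.41 to -0.14 for Wnt genes, 0.49 to 1.51 for glucocorticoid targets, -0.00545 to 0.26 for sphincter 1 markers, 0.11 to 0.27 for sphincter 2 markers, -0.0245 to 0.19 for stroma 2 markers and -0.57 to 0.42 for ciliary body epithelium (CBE) markers.

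The named genes that changed sign were not called in sphincter 2. Leaving out 1 library gave ranges of -0.49 to 1.94 for *Des*, -0.27 to 0.20 for *Adra1a*, -1.48 to 0.25 for *Dgkb*, -0.25 to 1.98 for *Hspb1*, -0.063 to 1.29 for *Itga9*, -0.23 to 1.58 for *Igfbp5*, -0.78 to 1.90 for *Sned1*, -0.0535 to 1.06 for *Rmst*, -0.0371 to 0.50 for *Cx3cr1*, -0.22 to 0.43 for *Anks1b* and -0.20 to 0.47 for *Wif1*. *Adra1a* was at 0.0689 without doublets and 0.0116 without nuclei with a *Nos1* UMI, *Cdh11* at -0.23, *Dgki* at -0.0228 and *Macrod2* at -0.0405 after thinning, *Rmst* at -0.20 under the replicate block and -0.0706 under the series block, and *Cx3cr1* at -0.0244 under the replicate block.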
